A study of Mus musculus with 6 samples.

Results

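Hox genes were examined for 2 histone marks in germinal center (GC) B cells, the antigen-activated B cells that mutate and are selected in lymphoid follicles. The members were 38 listed Hox genes of the HoxA, HoxB, HoxC and HoxD clusters, of 39 annotated in these clusters and of 21864 protein-coding genes. The members were listed by gene family, with no threshold on a measured value. HoxA and HoxB contributed 10 genes each, and HoxC and HoxD contributed 9 each. The libraries were made by Mint-ChIP, a multiplexed chromatin immunoprecipitation for small cell numbers in which sample barcodes are ligated before the pull-down. All 6 libraries came from spleens of mice labelled WT, collected on day 8 after the mice received sheep red blood cells as immunogen, with 50000 sorted cells for each library. 3 libraries carried H3K4me3 and 3 carried H3K4me1, and no other genotype, treatment or cell type was in these lists. The labels give no strain, age or further alleles, and they do not say whether the libraries of a mark came from separate mice, so p-values measure the spread between libraries only. The labels call the cells GC Centrocytes, and the study's methods call them GC B cells. The protocol label names an H3K27ac antibody, whereas titles, antibody labels and methods give H3K4me1 or H3K4me3, so the marks were taken from the titles.

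Hox genes encode homeodomain transcription factors that specify position along the body axis, and they lie in clusters whose gene order matches their order of expression along that axis. Trithorax-group enzymes place H3K4me3 at active Hox promoters, whereas Polycomb-group complexes keep the genes silent elsewhere. In blood, Hox genes such as Hoxa9 and Hoxb4 are known for their part in stem and progenitor cells and are turned down as cells mature. H3K4me3 marks promoters, and H3K4me1 is most abundant at enhancers and at the shoulders of promoters.

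The sorted cells carried both marks at B cell genes. A peak of H3K4me3 lay within 5 kb of a transcription start site (TSS), called promoter-proximal here, in at least 2 of 3 libraries at 12 of 12 B cell and GC genes (Cd79a, Pax5, Bcl6 and others), and it covered the TSS at all 12. H3K4me1 was promoter-proximal at the same 12 genes. Of 10 T cell genes, 2 had promoter-proximal H3K4me3 (Cd3d and Lat), and the TSS was covered at 1, Lat. Cd3e, Cd4, Cd8a, Cd28 and Themis had no such peak in any library. Of 10 myeloid genes 6 had promoter-proximal H3K4me3, of 8 erythroid genes 5 had it, and the TSS was covered in 0 and 1 of them. Over all genes the shares were 59.6% within 5 kb and 44.8% over a TSS. Within 5 kb the myeloid and erythroid counts thus lay near the background. These genes serve as a check of the labelled cell type, and their part in the Hox signal was not tested. The H3K4me3 lists held 41936 to 46707 peaks and the H3K4me1 lists 11922 to 24136, and read depth is unknown from such lists.

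In these B cells H3K4me3 was present in the Hox clusters as narrow, weak peaks at 16 of the 38 genes (42.1%), beside 59.6% of all genes. H3K4me1 peaks were nearly absent, with 0 genes in at least 2 libraries, beside 17.2% of all genes. The H3K4me1 lists were narrow and held fewer peaks. With the 10000 best peaks of each library the marks differed by −0.667 Hox genes only. Only 4 Hox genes, Hoxa3, Hoxa7, Hoxa13 and Hoxc9, had H3K4me3 over a TSS in at least 2 libraries. The recurrent regions with the highest fold enrichments lay at the upstream end of Hoxa7 and between Hoxb5 and Hoxb4. HoxA and HoxB held 12 of the 16 genes, 6 of 10 each and so near the all-gene share, and HoxD was nearly bare. Chromatin of a whole cell population was measured, so a mark on few cells and a weak mark on all cells cannot be told apart.

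The sequences that carry this pattern are shown first, in the GRCm38.p6 build, in lower case with every CG dinucleotide in capitals. The first set shows what lies under the firmest eligible H3K4me3 region of each cluster. For each cluster it is the region in all 3 libraries with the highest of the lowest −log10 q-values, among those whose shared stretch held at least 100 bases outside every exon of GENCODE and RefSeq. Shown is up to 300 bases from the middle of that exon-free stretch, on the plus strand and 5′ to 3′. The HoxA sequence spans chr6:52221428-52221546 and holds 9 CG, the HoxB sequence spans chr11:96311438-96311737 and holds 9 CG, and the HoxD sequence spans chr2:74672773-74672904 and holds 8 CG. No HoxC region met these conditions. The HoxD region was weak, with −log10 q of 1.59, 3.66 and 2.43 in replicates 1, 2 and 3, and was the only one of its cluster in all 3 libraries.
HoxA, intron of Hoxa7: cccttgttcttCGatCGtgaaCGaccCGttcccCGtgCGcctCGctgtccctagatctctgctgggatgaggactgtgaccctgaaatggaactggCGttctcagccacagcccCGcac
HoxB between Hoxb5 and Hoxb4: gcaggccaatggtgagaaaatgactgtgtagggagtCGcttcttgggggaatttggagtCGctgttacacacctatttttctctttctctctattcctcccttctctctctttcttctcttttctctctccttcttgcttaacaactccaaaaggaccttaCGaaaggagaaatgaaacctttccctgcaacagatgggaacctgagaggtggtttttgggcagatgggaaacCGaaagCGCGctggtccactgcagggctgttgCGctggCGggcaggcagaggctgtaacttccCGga
HoxD between Hoxd13 and Hoxd12: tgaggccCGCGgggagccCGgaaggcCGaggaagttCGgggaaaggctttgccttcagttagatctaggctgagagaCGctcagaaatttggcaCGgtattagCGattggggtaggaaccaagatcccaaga

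The second set contrasts CG-rich promoters that differ in the mark. Each is the 250 bases before the RefSeq gene start, on the gene's own strand. The Hoxa13 promoter (chr6:52260881-52261130, minus strand, 35 CG) lay under an H3K4me3 peak in all 3 libraries. That of Hoxd1 (chr2:74762730-74762979, plus strand, 24 CG), which overlaps an exon of the noncoding gene Haglr, had no peak of either mark within 5 kb of the gene's TSS in any library.
Hoxa13 promoter: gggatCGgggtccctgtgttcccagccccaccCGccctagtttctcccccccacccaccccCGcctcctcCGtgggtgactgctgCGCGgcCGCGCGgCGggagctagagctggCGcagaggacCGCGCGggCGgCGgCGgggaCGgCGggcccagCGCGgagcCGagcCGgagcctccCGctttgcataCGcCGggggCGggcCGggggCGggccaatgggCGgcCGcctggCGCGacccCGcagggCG
Hoxd1 promoter: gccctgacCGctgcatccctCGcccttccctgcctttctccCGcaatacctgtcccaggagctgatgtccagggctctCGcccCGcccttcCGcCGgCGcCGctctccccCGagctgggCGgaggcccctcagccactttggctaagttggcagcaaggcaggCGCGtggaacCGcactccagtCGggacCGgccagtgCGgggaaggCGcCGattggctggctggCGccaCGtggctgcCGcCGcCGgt

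The first comparison asked how many Hox genes carry each mark at their promoters, beside all protein-coding genes. Promoter-proximal H3K4me3 was found at 21, 13 and 15 Hox genes in replicates 1, 2 and 3, which is 55.3%, 34.2% and 39.5% of the 38. Over all protein-coding genes the shares were 61.7%, 59.3% and 60.3%, higher than the Hox share in every library. In at least 2 of 3 libraries, 16 Hox genes (42.1%) had the mark, beside 59.6% of all genes. In all 3 libraries, 10 (26.3%) had it, beside 56.2% of all genes, and in any library 23 (60.5%), beside 65.5%. A peak over the TSS itself in at least 2 libraries was found at 4 (10.5%), beside 44.8% of all genes, and in any library at 11 (28.9%), beside 50.5%. These are counts beside a background, and no test over genes was made because neighbouring Hox genes share peaks. When each peak counted only for the gene with the nearest TSS, 11 Hox genes remained, and Hoxa6, Hoxa9, Hoxb3, Hoxb7 and Hoxd13 dropped out.

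Promoter-proximal H3K4me1 was found at 2, 1 and 1 Hox genes (5.26%, 2.63% and 2.63%), beside 26.7%, 16.8% and 15.6% of all genes. 0 of 38 Hox genes had it in 2 or more libraries, beside 17.2% of all genes, or 6.17% for all 3 libraries. In a single library it was found at 4 genes (10.5%), beside 35.7% of all genes with it in any library. These were Hoxa13, Hoxb6, Hoxd12 and Hoxd13, and the last pair shared 1 peak. No H3K4me1 peak covered a Hox TSS in any library, and over all genes a covered TSS was rare too, at 2.36% in any library and 0.265% in at least 2. The number of Hox genes per library was 1.33 ± 0.577 for H3K4me1 and 16.3 ± 4.16 for H3K4me3 (SD, n = 3), with no overlap between marks. The difference was −15 genes (p = 0.1, two-sided exact permutation test over 20 assignments, the smallest p this design allows). The H3K4me3 lists have the broad peak layout and the H3K4me1 lists the narrow one, with fewer peaks, so mark and calling mode cannot be told apart in this contrast. When each list was cut to its 10000 best peaks, the difference was −0.667 genes (p = 0.6, exact permutation test).

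**Figure D1:**
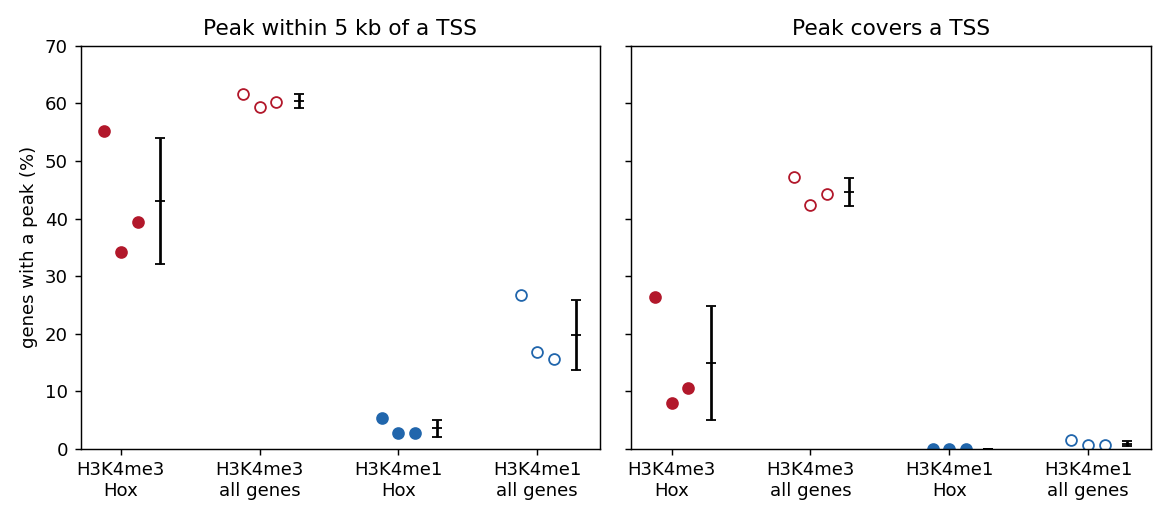
Percent of genes (y axis) with a peak within 5 kb of a TSS (left) or over a TSS (right), for the 38 Hox genes (filled) and all 21864 protein-coding genes (open). Points are the 3 libraries of each mark in replicate order, and black marks are the mean with the SD; the Hox points lie below the all-gene points in every pair of columns, as for H3K4me3 over a TSS with 26.3%, 7.89% and 10.5% against 47.2%, 42.3% and 44.3%.

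Position around the start site gave the same ordering. Over 54 distinct Hox TSSs, 15.4% ± 7.71 were covered by H3K4me3 at the TSS itself (SD, n = 3 libraries). Over all protein-coding TSSs it was 42.4% ± 2.46. At 1000 bp downstream the shares were 3.70% ± 3.21 and 31.0% ± 2.58. At 4000 bp upstream they were 5.56% ± 3.21 and 4.86% ± 0.467, so at that distance the Hox value lay within its spread of the value for all genes. At 3000 bp downstream they were 0.617% ± 1.07 and 5.56% ± 0.680, and at 4500 bp downstream 9.88% ± 2.83 and 4.39% ± 0.474, so the far offsets had no common direction.

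**Figure D2:**
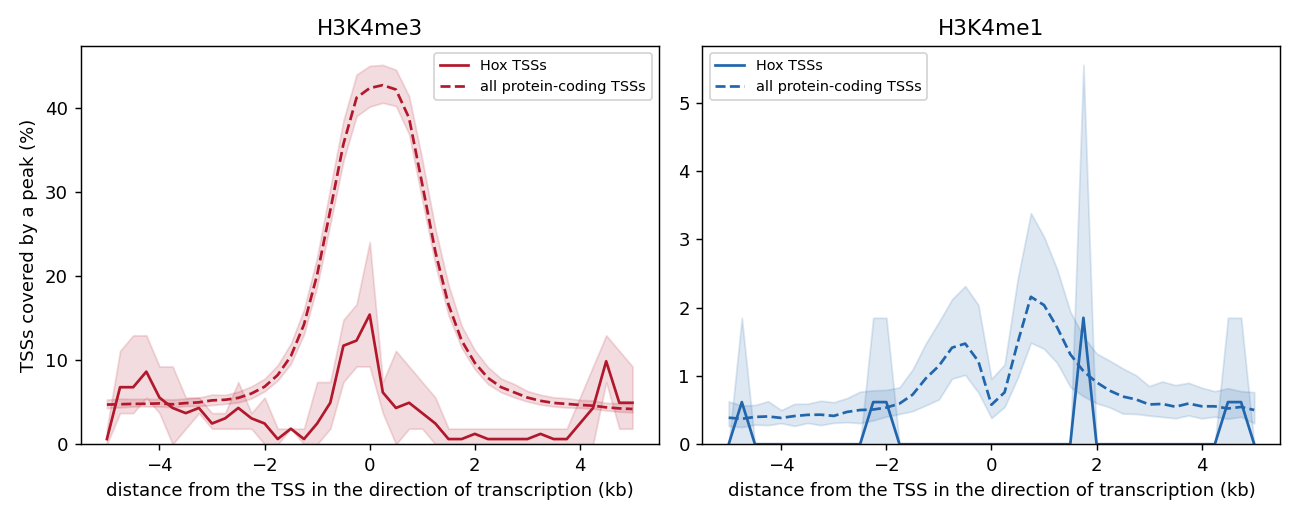
Percent of TSSs covered by a peak (y axis) against distance from the TSS in kb (x axis, positive downstream), for Hox TSSs (solid) and all protein-coding TSSs (dashed), as the mean of 3 libraries with the range shaded. For H3K4me3 the broad hump of all genes, 42.4% at the TSS, is replaced by a narrow rise to 15.4%, and for H3K4me1 the Hox line is 0 except at single peaks.

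Within the clusters, the anterior genes (paralog groups 1 to 4) pattern the hindbrain and neck, the central genes (5 to 8) the thorax, and the posterior genes (9 to 13) the lower trunk, limbs and genital region. H3K4me3 in at least 2 libraries was found at 4 of 11 anterior, 5 of 11 central and 7 of 16 posterior genes, beside 59.6% of all genes. It thus occurred at every level of the axis. Paralog group 13, which ends each cluster, had it at 3 of 4 genes, each in all 3 libraries. Of these, Hoxd13 counted in all 3 libraries through a region nearer to Hoxd12, and the Hoxb13 TSS was covered in replicate 1 only. Groups 1 and 2, at the opposite end, had no peak at any of their 4 listed genes. The groups between followed no order, with 2 of 2 genes in group 7 and 0 of 3 in group 11. By cluster the counts were 6 of 10 in HoxA, 6 of 10 in HoxB, 2 of 9 in HoxC and 2 of 9 in HoxD. Thus 7 of 9 genes in each of the last 2 clusters did not carry the mark in 2 libraries. HoxA and HoxB lay near the all-gene share of 59.6%, and HoxC and HoxD lay below it. Genes with a covered TSS in at least 2 libraries numbered 3, 0, 1 and 0 in these clusters, beside 44.8% of all genes.

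**Figure D3:**
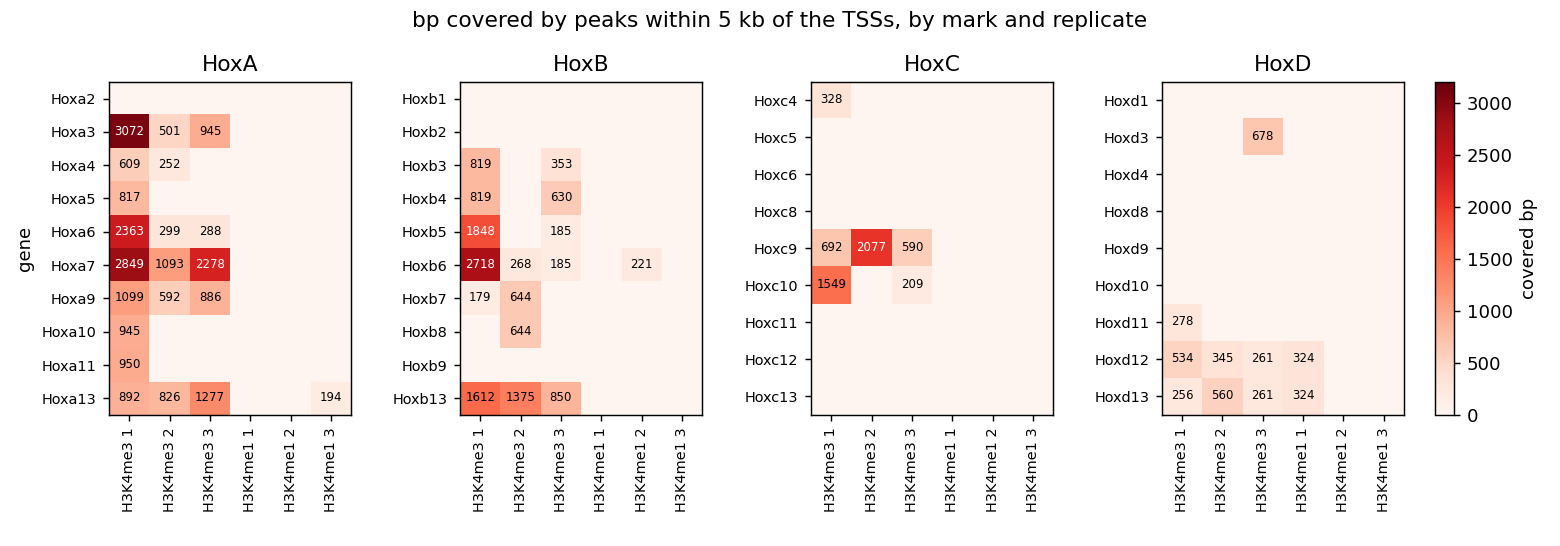
Base pairs covered by peaks within 5 kb of a gene's TSSs, printed and coloured for each listed gene (rows) in each library (columns, mark and replicate number), in 4 panels by cluster. Empty cells are 0; Hoxa7 with 2849, 1093 and 2278 bp is among the highest of HoxA in every library, Hoxa3 with 3072, 501 and 945 bp is so in replicate 1 only, and the 3 right-hand columns of H3K4me1 are empty except for 4 genes.

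In HoxA, the mark was clustered around Hoxa7, a central gene also active in blood progenitors. The covered length within 5 kb of the Hoxa7 TSSs was 2849, 1093 and 2278 bp in replicates 1, 2 and 3, or 2073 ± 896 bp (SD, n = 3). The peak nearest a TSS covered it in replicates 1 and 3 and ended 319 bp away in replicate 2. The strongest region of HoxA lay at chr6:52220520-52222287, 1809 bp from the nearest TSS used here, which is that of Hoxa7. It runs across the upstream end of the annotated span of Hoxa7. The full GENCODE annotation, which lists more transcripts than the basic set used for the counts, places the first exon of a further Hoxa7 transcript there, with its TSS at chr6:52221854, and the peaks of replicates 1 and 2 covered this TSS while that of replicate 3 did not. With all TSSs of the full annotation, an alternative chosen after seeing the data, the counts of Hox genes stayed at 16 within 5 kb and at 4 with a covered TSS, beside 60.2% and 46% of all genes. Its fold enrichment, the ratio of fragments to local background given by the peak caller, was 5.94, 6.78 and 6.28, so all 3 libraries carried it at like height. It was the only region within 5 kb of a Hox TSS with a −log10 q of 5 or more in every library. Hoxa9, a self-renewal factor of blood progenitors and of leukemia, had 1099, 592 and 886 bp. In replicates 1 and 2 these came from the same region, and in replicate 3 they included a separate peak of 222 bp. None of the peaks reached a Hoxa9 TSS, and the nearest ended 3902, 4170 and 131 bp away.

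Hoxa3, a gene of the anterior group that patterns the pharyngeal arches, had 3072, 501 and 945 bp. Its TSS was covered in all 3 libraries by the region chr6:52211809-52213354, which has fold enrichments of 4.87, 4.69 and 3.72. The covered TSS is the upstream one of the gene, between Hoxa6 and Hoxa7, and the region also holds the TSS of the overlapping gene Gm28308. The other protein-coding neighbour in HoxA, 5730596B20Rik, had no peak within 5 kb. Hoxa6 had 2363, 299 and 288 bp. In replicates 2 and 3 all of it came from the same region, and in replicate 1 a separate peak of 817 bp was added that covered the Hoxa6 TSS. Hoxa4 had 609, 252 and 0 bp, and its peaks of replicates 1 and 2 did not overlap. Hoxa5, Hoxa10 and Hoxa11 had a peak in replicate 1 alone (817, 945 and 950 bp), and Hoxa2 had none.

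Hoxa13, which patterns the digits and the genital tubercle, ends the cluster. It had 892, 826 and 1277 bp, or 998 ± 244 bp, in a single peak per library that covered the TSS each time, with fold enrichments of 4.63, 4.44 and 3.86. The region spans chr6:52260672-52261954 and contains the promoter printed above. Among the genes with a covered TSS it varied least between libraries. Upstream of it, toward Evx1, 2 further regions recurred in all 3 libraries at chr6:52290574-52292003 and chr6:52305175-52306872, which lie 21495 and 6626 bp from the Evx1 TSS. The second had fold enrichments of 5.51, 5.59 and 4.09.

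In HoxB the mark formed a group around Hoxb13 and another between Hoxb7 and Hoxb4. Hoxb13, a gene of the prostate and hindgut, had 1612, 1375 and 850 bp, or 1279 ± 390 bp. Most of it lay off the TSS, which was covered in replicate 1 only, and the nearest peak was 2292 and 1930 bp away in replicates 2 and 3. A chain of 4 regions recurred here in all 3 libraries, starting at chr11:96190755-96192998 on the far side and followed by chr11:96199212-96200296, chr11:96202481-96203803 and chr11:96205674-96206212, with fold enrichments of 3.09 to 4.47 over the libraries. The last 2 lie 8165 and 11358 bp from the Hoxb13 TSS and count for no gene.

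The strongest HoxB region, at chr11:96310901-96312129, lay between Hoxb5 and Hoxb4. Its widths were 1172, 1003 and 1177 bp and its fold enrichments 6.02, 6.44 and 5.13, and its −log10 q was 6.67, 7.43 and 5.04. No annotated exon or gene overlaps it. It is 6138 bp from the TSS of Hoxb4, so it lies past the 5 kb limit and adds to no member's count. Hoxb4, which expands blood stem cells when overproduced, had 819, 0 and 630 bp, with its TSS covered in replicate 3 only. Hoxb5 had 1848, 0 and 185 bp, Hoxb6 had 2718, 268 and 185 bp, Hoxb3 had 819, 0 and 353 bp and Hoxb7 had 179, 644 and 0 bp. Of these, Hoxb6 alone had a peak within 5 kb in all 3 libraries, and replicate 1 was the highest except at Hoxb7. The Hoxb6 peak of replicate 3 lay 4028 bp from its TSS, in the region at Hoxb5. The Hoxb7 peaks of replicates 1 and 2 did not overlap and lay 3301 and 99 bp from its TSS. Hoxb8 had 644 bp in replicate 2 only, and Hoxb1, Hoxb2 and Hoxb9 had none.

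In HoxC the mark was found at the neighbours Hoxc9 and Hoxc10, which act in the spinal cord and skeleton of the lower trunk. Hoxc9 had 692, 2077 and 590 bp, with fold enrichments of 3.29, 3.62 and 3.51 and its TSS covered in replicates 1 and 2. The peaks of replicates 1 and 3 did not overlap and were joined into a region only through the wide peak of replicate 2. Hoxc10 had 1549, 0 and 209 bp. A region at chr15:102998948-103000122, 8341 bp from the Hoxc8 TSS and within the annotated span of Hoxc6, held a peak in each library, with fold enrichments of 4.28, 4.34 and 4.91. Its peaks did not share a common base. Hoxc4 had 328 bp in replicate 1 only, and the other 6 listed HoxC genes had none.

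In HoxD a single region recurred within the cluster, at chr2:74672607-74673033 between Hoxd13 and Hoxd12, a pair of digit and limb genes. Its fold enrichments were 3.04, 4.46 and 3.63 and its widths 256, 345 and 261 bp. It lies 1980 bp from the Hoxd12 TSS and outside every annotated gene. Through this region and small peaks nearby, Hoxd12 had 534, 345 and 261 bp and Hoxd13 had 256, 560 and 261 bp. No HoxD TSS of the basic set was covered in any library. Hoxd11 in replicate 1 (278 bp) and Hoxd3 in replicate 3 (678 bp) had a peak once, and Hoxd1, Hoxd4, Hoxd8, Hoxd9 and Hoxd10 had none. In the flank, the homeobox gene Evx2 next to Hoxd13 had promoter-proximal H3K4me3 in all 3 libraries.

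**Figure D4:**
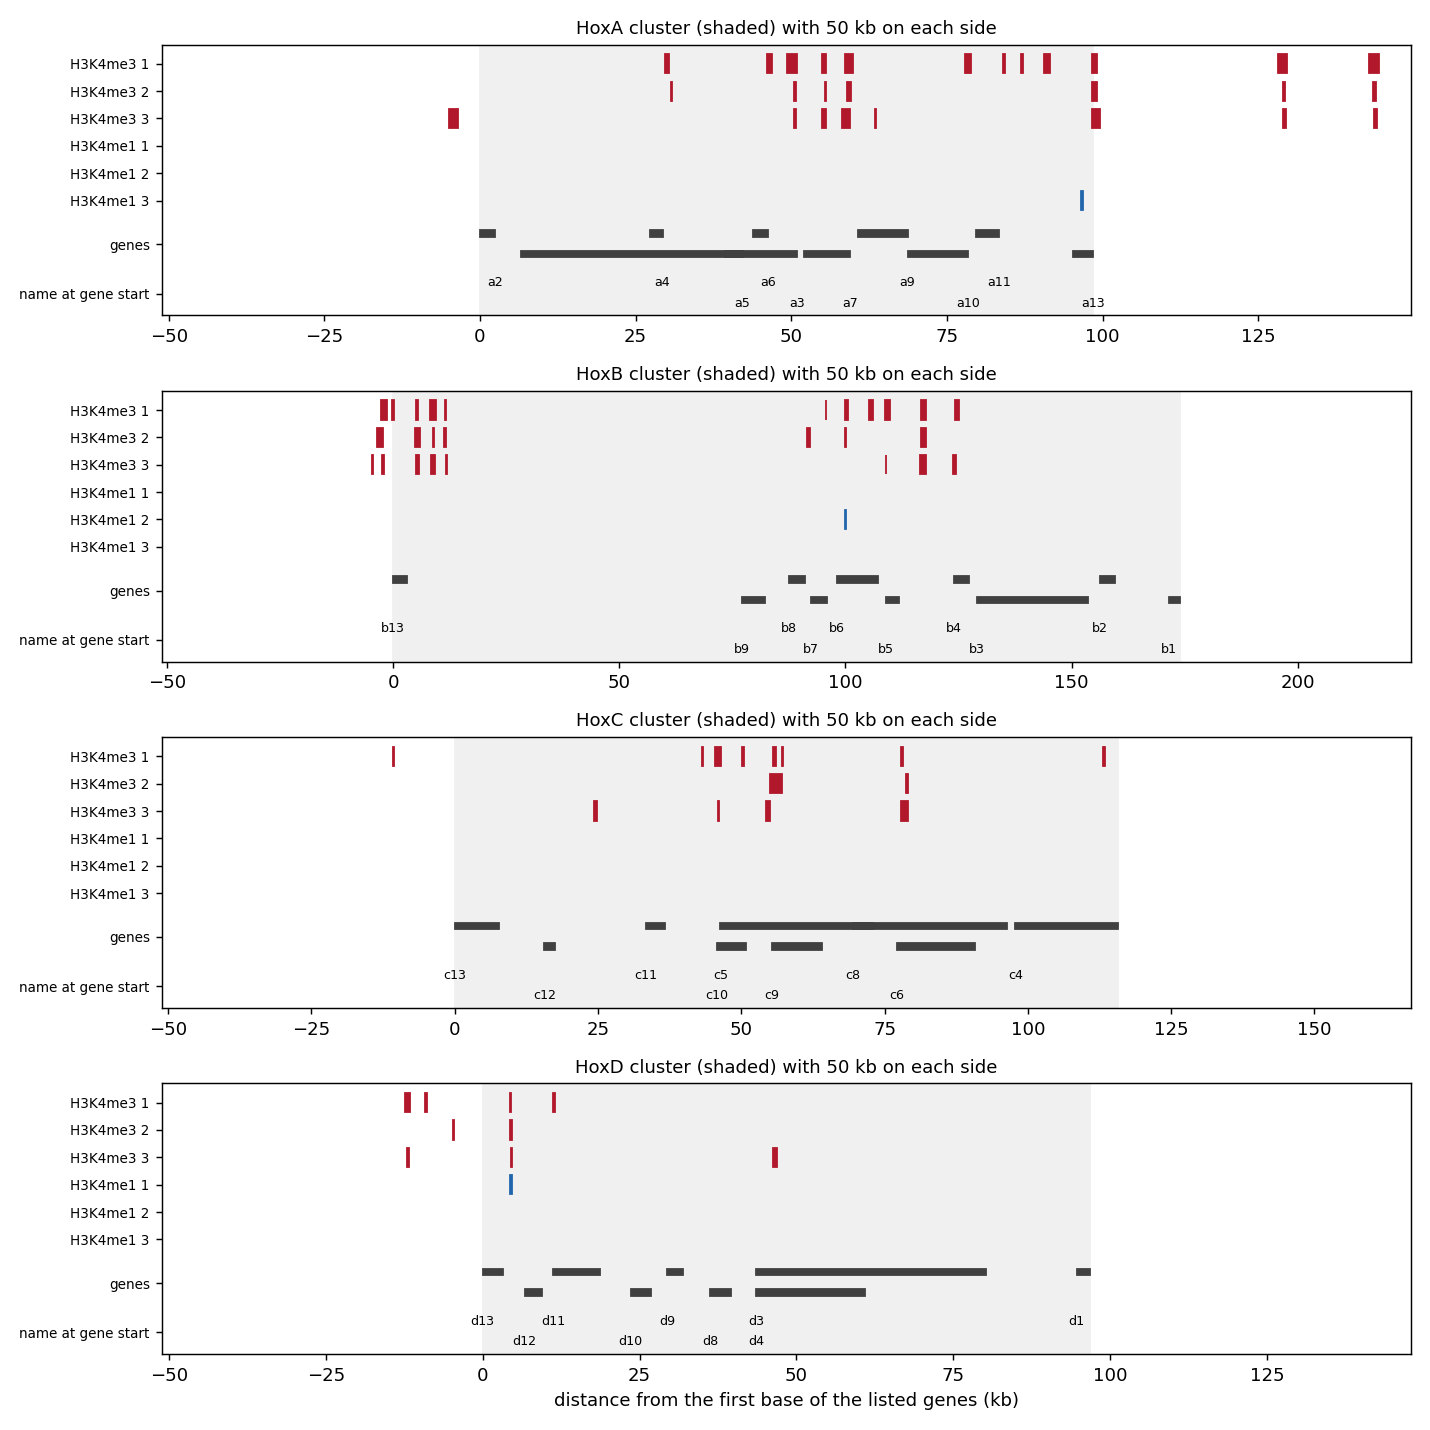
Peaks of each library (rows, H3K4me3 red and H3K4me1 blue) along the 4 clusters with 50 kb on each side, with gene spans over all transcripts in dark grey and names at each gene's start. The x axis is the distance in kb from the first base of the listed genes, the shaded part is the cluster, and very short peaks are widened to stay visible; columns of red in all 3 upper rows mark the 11 recurrent regions of the clusters.

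Summed over the clusters, 34 distinct H3K4me3 regions were found within the spans of the listed genes. Of these, 11 were present in 3 libraries, 4 in 2 and 19 in 1. Among the 11, the 2 in HoxC had no base shared by all 3 libraries. Regions in at least 2 libraries numbered 4 in HoxA, 7 in HoxB, 3 in HoxC and 1 in HoxD, and 4 of these 15 lay more than 5 kb from a protein-coding TSS. Of the cluster peaks of replicates 1, 2 and 3, 51.7%, 85.7% and 82.4% met a peak in another library. Over all H3K4me3 peaks the shares were 72.1%, 78.9% and 78.6%. The clusters thus lay below this background in replicate 1 and above it in replicates 2 and 3. Promoter-proximal H3K4me3 peaks alone had 87.4%, 92.3% and 91.3%, but not all cluster peaks were promoter-proximal. Replicate 1 had 29 cluster peaks and replicates 2 and 3 had 14 and 17. Replicate 1 also had the most peaks in all, and the part of this in the Hox counts was not tested.

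The clusters were compared for the share of their length under H3K4me3. HoxA had 7.67%, 1.58% and 2.75% in replicates 1, 2 and 3, HoxB 3.94%, 2.10% and 2.26%, HoxC 2.46%, 1.96% and 2.06%, and HoxD 0.551%, 0.356% and 0.970%. HoxD was the lowest in every library. HoxA was the highest in replicates 1 and 3 and below HoxB and HoxC in replicate 2. Of the 6 pairs of clusters, the largest mean difference was that of HoxA over HoxD, 3.37 ± 3.26 percentage points. HoxC over HoxD was 1.54 ± 0.410 percentage points (SD, n = 3), positive in 3 of 3 libraries, and 0 with peaks of −log10 q of at least 5 or with the 10000 best peaks, since neither cluster then held a peak. An exact sign-flip permutation test over 3 libraries cannot go below p = 0.25, and HoxC over HoxD reached it (adjusted p = 0.375 over 6 pairs). HoxB over HoxD, HoxA over HoxD and HoxB over HoxC had the same p, whereas HoxA did not differ in one direction from HoxB or HoxC (p = 0.75 and p = 0.5, exact sign-flip permutation test). Without replicate 1 the difference of HoxA over HoxB was −0.0189 percentage points in place of 1.23, so that the order of these clusters rested on 1 library.

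The covered share of the clusters was then set against the genome. The 4 clusters together had 3.67%, 1.61% and 2.05% of their length covered, and the genome had 2.21%, 1.81% and 1.86%. The clusters lay above the genome in replicates 1 and 3 and below it in replicate 2. The windows within 5 kb of Hox TSSs had 4.36%, 1.99% and 2.01%, beside 12.3%, 10.4% and 10.8% for all protein-coding TSSs, without overlap. For H3K4me1, 0.0668%, 0.0456% and 0.0400% of the clusters was covered, beside 0.290%, 0.160% and 0.130% of the genome. The covered share of the clusters was 2.44% ± 1.08 for H3K4me3 and 0.0508% ± 0.0141 for H3K4me1 (SD, n = 3). The difference of −2.39 percentage points had p = 0.1 in the two-sided exact permutation test, the smallest that 3 against 3 libraries allow. It includes the difference between broad and narrow calling, and with the 10000 best peaks of each library it was −0.173 percentage points (p = 0.4, exact permutation test).

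**Figure D5:**
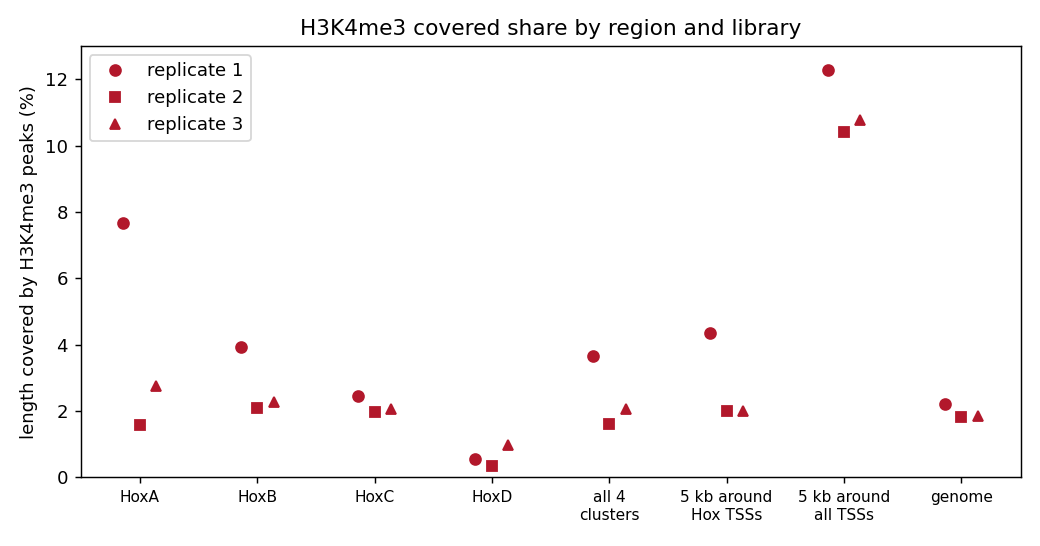
Percent of length covered by H3K4me3 peaks (y axis) in each cluster, the 4 clusters together, windows of 5 kb around Hox TSSs and around all protein-coding TSSs, and the genome, with 1 symbol per library. HoxD lies at or below 0.970% in all libraries, HoxA spreads from 1.58% to 7.67%, and windows around all TSSs lie above 10%.

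Hox peaks were also narrower and weaker than those of other marked promoters. Among genes with a promoter-proximal H3K4me3 peak, the median covered length was 892, 592 and 590 bp for Hox genes and 2135, 1908 and 1914 bp for all genes. The median of the highest fold enrichment per gene was 3.86, 4.44 and 3.63 for Hox genes and 6.55, 6.02 and 5.99 for all. The TSS was covered in 47.6%, 23.1% and 26.7% of the marked Hox genes and in 76.5%, 71.3% and 73.4% of all marked genes. A −log10 q of at least 5 was reached by 3, 2 and 2 of the cluster peaks (10.3%, 14.3% and 11.8%), beside 36.8%, 36.2% and 32.6% of all peaks. At this limit 2 Hox genes, Hoxa7 and Hoxa9, were left in at least 2 libraries (5.26%), beside 44.1% of all genes. Both met it through the same region, at the upstream end of Hoxa7. These medians cover only the genes with a peak and carry no test.

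The 3 H3K4me1 peaks of the clusters were each seen in 1 library. The peak in HoxA lay in an exon of Hoxa13, 1586 bp from its TSS (chr6:52259023-52259216, replicate 3, fold enrichment 4.39). That of HoxB lay within Hoxb6 at chr11:96294247-96294467 (replicate 2, fold enrichment 5.49), inside the H3K4me3 region chr11:96294222-96294991 seen in replicates 1 and 2. That of HoxD, at chr2:74672746-74673069 (replicate 1, fold enrichment 3.43), overlapped the recurrent H3K4me3 region between Hoxd13 and Hoxd12. The heights and p-values of these narrow peaks correspond to 5, 7 and 4 fragments at the summit, so each call rests on few fragments and a weak H3K4me1 signal elsewhere in the clusters would not be detectable in these lists.

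Promoter sequence was read for the 22 members present in the RefSeq promoter table of GRCm38.p6. Most of these were HoxA or HoxD genes, and Hoxc4 was the only one of HoxC. A promoter was called CG-rich when its 250 bases before the start had an observed to expected CG ratio of at least 0.6 and at least 50% GC. By this rule 45.8% of the 24 Hox promoters were CG-rich, beside 31.0% of all promoters in the table. Of genes with a CG-rich promoter, 88.5% had promoter-proximal H3K4me3 in at least 2 libraries, beside 5 of 11 Hox genes (45.5%). Of genes without one, 38.4% had it, beside 3 of 11 Hox genes (27.3%). The gap between these few Hox genes and all genes was wider among CG-rich promoters. The 6 CG-rich Hox genes without the mark in 2 libraries were Hoxa5, Hoxa10, Hoxa11, Hoxd1, Hoxd10 and Hoxd11. On both strands, the TATA motif TATAAA was found in 16.7% of Hox promoters and 12.4% of all promoters. The retinoic acid receptor core AGGTCA was found in 25.0% and 14%, and TGATNNAT, the core of the Hox and Pbx composite site, in 16.7% and 7.68%. With 24 Hox promoters these shares rest on 4, 6 and 4 promoters and are descriptions.

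Noncoding genes with a TSS inside the clusters were read in the same way. Of 17 long noncoding RNA genes, 1 had H3K4me3 within 5 kb in at least 2 libraries (5.88%), beside 32.1% of all such genes. This was Hoxb5os beside Hoxb5, with a peak within 5 kb in 3 libraries. In replicate 2 that peak was the one of the strongest HoxB region, 4188 bp from the Hoxb5os TSS. Hotair, the long noncoding RNA of HoxC that binds Polycomb proteins, had H3K4me3 nearby in 1 library only. Of 7 microRNA genes 2 had it (28.6%), beside 27.7% of all microRNA genes, so this share is that of the background. These were Mir10a near Hoxb4 in 2 libraries and Mir196a-2 near Hoxc9 in 3. Just outside HoxA lies the TSS of Hottip, which recruits an H3K4 methyltransferase to posterior HoxA genes. It was 1221, 1287 and 830 bp from a peak, and this was the peak over the Hoxa13 TSS described above. The Hottip TSS itself was covered in 0 libraries.

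Genes that act with or on Hox genes or proteins are given beside the all-gene shares of 59.6% for H3K4me3 and 17.2% for H3K4me1. All 9 cofactors of the Pbx, Meis and Pknox families, whose homeodomain proteins bind DNA beside Hox proteins, had promoter-proximal H3K4me3 in at least 2 libraries. H3K4me1 in at least 2 was found at Pbx2 and Pbx4. Of 13 listed activators 12 had H3K4me3, the exception being the retinoic acid receptor gene Rarb with no peak in any library. Among them Kmt2a, the methyltransferase that maintains Hox expression, Psip1, Kdm6a, Kdm6b and Ash1l had H3K4me1 in all 3 libraries. All 12 repressors, mostly subunits of Polycomb complexes, had H3K4me3, and Ezh2, Eed, Ring1 and Cbx8 were among those with H3K4me1 in at least 2 libraries. The TSS was covered in at least 2 libraries at 5 of the 9 cofactors, 5 of the 13 activators and 6 of the 12 repressors, beside 44.8% of all genes, so over the TSS these lists lay near the background. No test of these lists was made.

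Homeobox genes of development outside the clusters were read as well. Of 30 such genes, 19 (63.3%) had promoter-proximal H3K4me3 in at least 2 libraries, beside 42.1% of Hox genes and 59.6% of all genes. The TSS was covered at 5 (16.7%), beside 10.5% of Hox genes and 44.8% of all genes, and none had H3K4me1 in 2 or more libraries.  No test between these lists was made.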

How the data were processed

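Mint-ChIP peak lists of 6 libraries were used, 3 per mark. Peaks were called per library by the authors, with no pooling, and deposited in the MACS2 layout, broad for H3K4me3 and narrow for H3K4me1. The submitters' processing notes name BWA, Picard, HOMER, Genrich and mm10. The caller, its settings and its control are not given in the sources used here. The deposited fold enrichment is a ratio of pileup to local background, with its −log10 p-value and −log10 q-value. The deposited score and peak position columns are a score per peak and the coordinates. The lowest −log10 q was 1.02 to 1.14 in the H3K4me3 lists and 1.31 to 1.32 in the H3K4me1 lists, so a gene without a peak may hold signal below these limits. Read depth is unknown.

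Coordinates were read as GRCm38, and 0 peaks ran past a chromosome end. TSSs came from 45078 protein-coding transcripts of the GENCODE basic annotation (41451 distinct TSSs, 21864 genes). A gene counted when a peak lay within 5 kb of a TSS in at least 2 of 3 libraries, whether or not these peaks overlapped. Clusters ran from the first to the last base of the listed genes, and maps added 50 kb. Regions merged overlapping peaks of the 3 libraries of a mark. Summit fragments of narrow peaks were solved from fold enrichment and p-value under a Poisson model (tolerance 0.0005). Libraries were the replicates, with exact permutation tests for marks, sign-flip tests for clusters and Benjamini-Hochberg adjustment over 6 pairs. Python 3.11.15, pandas 2.3.3, numpy 2.4.6 and scipy 1.17.1 were used, and the scripts were tested on simulated data. Every listed gene was accounted for, and genes with a peak in at least 2 libraries were described with values. Of 39 annotated Hox genes 38 were listed, and 1 is not reported here. The members and gene lists were chosen with earlier results of these data known. No list of problem regions was applied. Exons and regions were annotated from the full GENCODE set. Alternatives were stricter peaks, other TSS distances, other gene assignments and leaving out each library.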

Additional observations from a re-analysis of the deposited data

How the results depend on the processing

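Of 84 alternative values, 74 kept their direction and, for counts, stayed within 1.5 times. These include H3K4me1 counts that could not leave 0. The number of Hox genes with H3K4me3 in at least 2 libraries was 16. It fell to 2 with peaks of −log10 q of at least 5 and to 2 with the 10000 best peaks of each library, to 7 with a TSS distance of 1 kb, to 4 with peaks over the TSS and to 10 when 3 of 3 libraries were required. Leaving out 1 library, with a peak required in both others, it ranged from 10 to 14, the lowest without replicate 1. Under this stricter rule it could not exceed 16. The count for H3K4me1 was 4 when any 1 library sufficed, and 0 under every other setting run. Most of these settings only narrow a count that was already 0, so they could give nothing else. The wider sets of TSSs could have added genes and did not. The difference between marks in Hox genes was −15, and with the 10000 best peaks of each library it was −0.667 (p = 0.6, exact permutation test); the cause was not tested. The covered share behaved alike, with −2.39 percentage points against −0.173 (p = 0.4, exact permutation test). The share of HoxC over HoxD became 0 with the stricter peaks and 0 with the best 10000, since neither cluster then held a peak. The share of HoxA over HoxB ranged from −0.0189 to 2.11 when 1 library was left out. With the replicate number as a block, the differences between marks stayed −15 genes and −2.39 percentage points with p = 0.25 for each (exact sign-flip permutation test). Deviations of same-numbered libraries correlated at 0.0016 to 0.0084, and those of differently numbered libraries at −0.0114 to 0.00696. All lay near 0 across 2 unlike marks, so they cannot show whether same-numbered libraries shared cells.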
